A study of Homo sapiens with 15 samples.

Results

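The genes described here encode the anion/proton exchangers CLCN3, CLCN4, CLCN5, CLCN6 and CLCN7, the CLCN7 partner OSTM1, the cation channels MCOLN1, TPCN1 and TPCN2, and the potassium channel TMEM175 of endosomes and lysosomes. They were picked by gene name and make up 10 of the 60107 gene identifiers measured. Each name matched 1 identifier, and 9 of the 10 had enough reads to be tested, among 10495 tested genes in all. CLCN4 was below the filter on low counts. The study asked how MIA PaCa-2 cells, an established human pancreatic carcinoma line, respond at the RNA level to lysosomotropic compounds, which accumulate in acidic compartments. The 15 RNA-seq libraries fell into 5 groups of 3, which were the vehicle control (Ctrl), Lys05, BAQ12, BAQ13 and BAQ12O. Each agent was given at 5 µM for 24 h, and no gene was altered in any group. Lys05 is a bisaminoquinoline autophagy inhibitor. BAQ12 and BAQ13 join its head group to a hydrophobic tail, self-assemble into nanoparticles in the study and differ from each other by 1 methylene unit. BAQ12O is known only by this label, and the series design text writes 12O. All libraries come from 1 cell line, and the labels do not say whether the 3 libraries of a group are separate cultures, so the p-values measure only the spread between these libraries.

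The V-ATPase pumps protons into endosomes and lysosomes, and the charge it moves has to be balanced by other ions. Intracellular CLC proteins exchange chloride for protons and take part in this balance, whereas MCOLN1 (TRPML1) and the two-pore channels TPCN1 and TPCN2 let calcium or sodium out of the organelle and TMEM175 passes potassium and protons. Loss of CLCN7 or OSTM1 causes osteopetrosis, loss of CLCN5 causes Dent disease of the kidney, and loss of MCOLN1 causes mucolipidosis type IV. Several lysosomal genes carry E-box sequences near their start sites that transcription factors of the TFEB family can bind.

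Values are normalised read counts, in which the reads of a gene were scaled by 1 size factor for each library. Between 1586566 and 2500551 reads fell on genes in a library (median 2230594). A floor of 3 reads corresponded to 2.49 to 4.14 normalised counts and, like all counting limits here, covers counting error only. The epithelial keratins KRT8, KRT18 and KRT19 had reads in every group. Other epithelial markers were near 0, with at most 5 reads of CDH1 and 1 of EPCAM in a library. Of the mesenchymal markers, VIM lay between 9198 and 10781 and ZEB1 between 107 and 185, whereas CDH2 had at most 1 read in a library. Markers of acinar cells had no reads, and those of endocrine, leukocyte and endothelial cells summed to at most 11.4 normalised counts in a library. Among the 6 epithelial markers, KRT8 fell with BAQ12, BAQ13 and BAQ12O by 0.58, 0.85 and 0.60 on the log2 scale (limma adjusted p = 0.00607, 3.8e-05 and 0.00443). KRT18 fell with BAQ13 by 0.50 and with BAQ12O by 0.43 (limma adjusted p = 0.00261 and 0.0246). KRT19, the third one tested, was not called, with differences of 0.12 for both (limma adjusted p = 0.449 and 0.576) and all libraries of both groups above vehicle. With Lys05 no epithelial marker was called (smallest limma adjusted p = 0.311). Every Lys05 library was still below every vehicle library for KRT8 (245 to 267 against 315 to 350) and KRT18 (691 to 826 against 887 to 970). The summed epithelial markers ranged from 1715 to 1795 in the vehicle libraries and from 1362 to 1380 with BAQ13, with the other treatments between 1364 and 1574. The fibroblast marker COL1A2 fell with BAQ12 and BAQ13 by 0.56 and 0.54 (limma adjusted p = 0.0106 and 0.00433), whereas DCN was at 0 and COL1A1 near 0. The 3 fibroblast markers summed to between 214 and 253 normalised counts in the vehicle libraries, 149 and 156 with BAQ12, and 148 and 169.8 with BAQ13. Mitochondrial genes took 15.8 to 20.6% of the reads. Whether these differences play a part in the values of the channel genes was not tested. In bulk RNA of this 1 cell line, fewer cells with a marker cannot be told apart from less of its RNA per cell.

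A pair of libraries stood apart from their groups. BAQ12 replicate 3 had a mean correlation of 0.934 with the other BAQ12 libraries, and chi-square values per degree of freedom of 12.6 and 10.7 against them. BAQ13 replicate 1 reached 3.28 and 5.96, whereas the other 11 pairs within groups lay between 1.05 and 1.74. The deviations of these libraries from their group means correlated with r = 0.573 across genes, which are not independent replicates. Differences from vehicle of the genes that moved most without these libraries are given both ways.

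The promoter sequences of the 10 genes were searched for the E-box CACGTG and for the longer form GTCACGTG, which reads CACGTGAC on the other strand and contains the shorter motif. The windows were RefSeq sequences (GRCh38.p14) from 250 bases before to 50 bases after the annotated transcript start, with 14 windows for the 10 genes. CACGTG occurred in 5 of these 14 windows, against 7.26% of all 35116 windows, and GTCACGTG occurred in 4, against 2.40%. CLCN6, CLCN7 and MCOLN1 each held a pair of matches, and CLCN4 and CLCN5 held 1 each. No match was found in the windows of CLCN3, OSTM1, TPCN1, TPCN2 and TMEM175. Each match is printed within 30 bases on the strand of its gene, with CACGTG in capitals, because these are the letters that set the 5 genes apart from the other members in this search.
CLCN6, chr1:11806159-11806188, + strand: gctcgagagggcCACGTGaccgtcccgggg
CLCN6, chr1:11806182-11806211, + strand: cccggggccagtCACGTGaggcgcagatcc
CLCN7, chr16:1475058-1475087, - strand: gccgtcgctcatCACGTGgccccgtcgcgc
CLCN7, chr16:1475038-1475067, - strand: cccgtcgcgcgtCACGTGgccgccggcgcg
MCOLN1, chr19:7522571-7522600, + strand: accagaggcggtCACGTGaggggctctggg
MCOLN1, chr19:7522598-7522627, + strand: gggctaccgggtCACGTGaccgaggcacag
CLCN4, chrX:10156923-10156952, + strand: ggctgggccgagCACGTGatgctcccagcc
CLCN5, chrX:50067526-50067555, + strand: caaaggtctggtCACGTGactccaacagtg

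The first base of CACGTG lay between 50 bases before and 3 bases after the start. In GENCODE release 29, the matches of CLCN6 and CLCN7 lie in an exon of the gene, that of CLCN5 lies in an intron upstream of one of its alternative starts, and those of MCOLN1 and CLCN4 lie before the annotated gene. The match of CLCN5 was found in 1 of its 3 windows. A match is a run of letters, not evidence of binding, and no binding was measured.

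**Figure D1:**
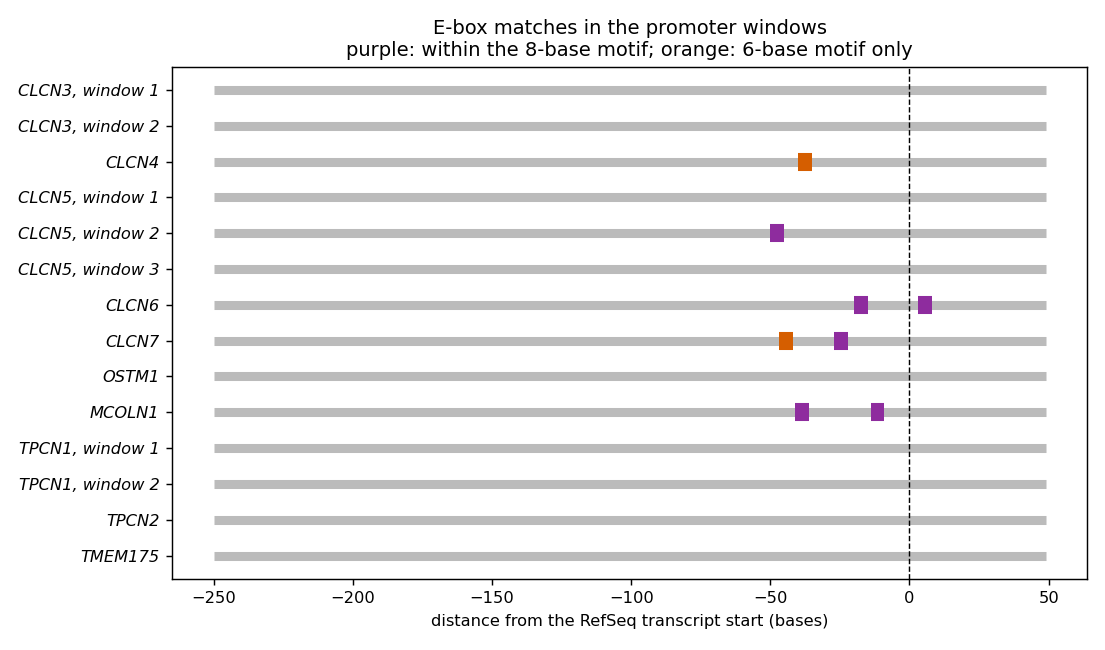
Position of E-box matches (coloured blocks) in the 14 promoter windows of the 10 genes (grey bars), in bases from the RefSeq transcript start (dashed line). Matches sat close to the start in CLCN4, CLCN5, CLCN6, CLCN7 and MCOLN1, and purple marks those within GTCACGTG or its other strand.

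CLCN5 was the gene of this set that passed the test, with higher RNA after BAQ13. It encodes an exchanger of early endosomes and lies at chrX:49922615-50099235 (GRCh38, + strand). The 3 vehicle libraries held 29.1, 35.7 and 41.3 normalised counts of CLCN5, and the 3 BAQ13 libraries held 60.7, 53.8 and 52.0. Every BAQ13 library was thus above every vehicle library. The fitted rise was 0.65 on the log2(value + 1) scale (SE 0.16, 95% interval 0.30 to 0.99, limma adjusted p = 0.0256), from 35.4 ± 6.13 to 55.5 ± 4.59 (SD, n = 3). The counts behind these values were 112 reads in the vehicle group and 186 reads in the BAQ13 group. This was 1 member called of 9, where 5.77% of all tested genes were called for BAQ13 against vehicle, and 5 members had an unadjusted p under 0.05, as did 19.4% of all tested genes. edgeR on the recovered reads called the same gene (adjusted p = 0.0215), whereas DESeq2 called no member (adjusted p = 0.0733 for CLCN5). The call also depended on single libraries. It was lost without vehicle replicate 1, vehicle replicate 2, BAQ13 replicate 1 or BAQ13 replicate 2, with limma adjusted p values of 0.124, 0.0746, 0.112 and 0.0708, while the fitted rise stayed between 0.52 and 0.76 when any library of either group was left out.

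CLCN5 was also measured at 43.7, 32.3 and 35.5 normalised counts with Lys05, at 44.0, 43.4 and 42.7 with BAQ12, and at 43.1, 48.6 and 48.3 with BAQ12O. The BAQ12 and BAQ12O libraries were all above the vehicle libraries, and the Lys05 libraries overlapped them. By group mean, the order was vehicle (35.4), Lys05 (37.1), BAQ12 (43.4), BAQ12O (46.7) and BAQ13 (55.5). No neighbours in this order differed by the test. The fitted differences from vehicle were 0.07 with Lys05, 0.30 with BAQ12 (95% interval -0.05 to 0.65) and 0.40 with BAQ12O (95% interval 0.05 to 0.75), with limma adjusted p values of 0.999, 0.472 and 0.293. Between treatments, BAQ13 exceeded Lys05 by 0.57 (95% interval 0.23 to 0.92, limma adjusted p = 0.0800) and BAQ12 by 0.35 (95% interval -0.002 to 0.69, limma adjusted p = 0.606), with no overlap between the libraries in either case.

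**Figure D2:**
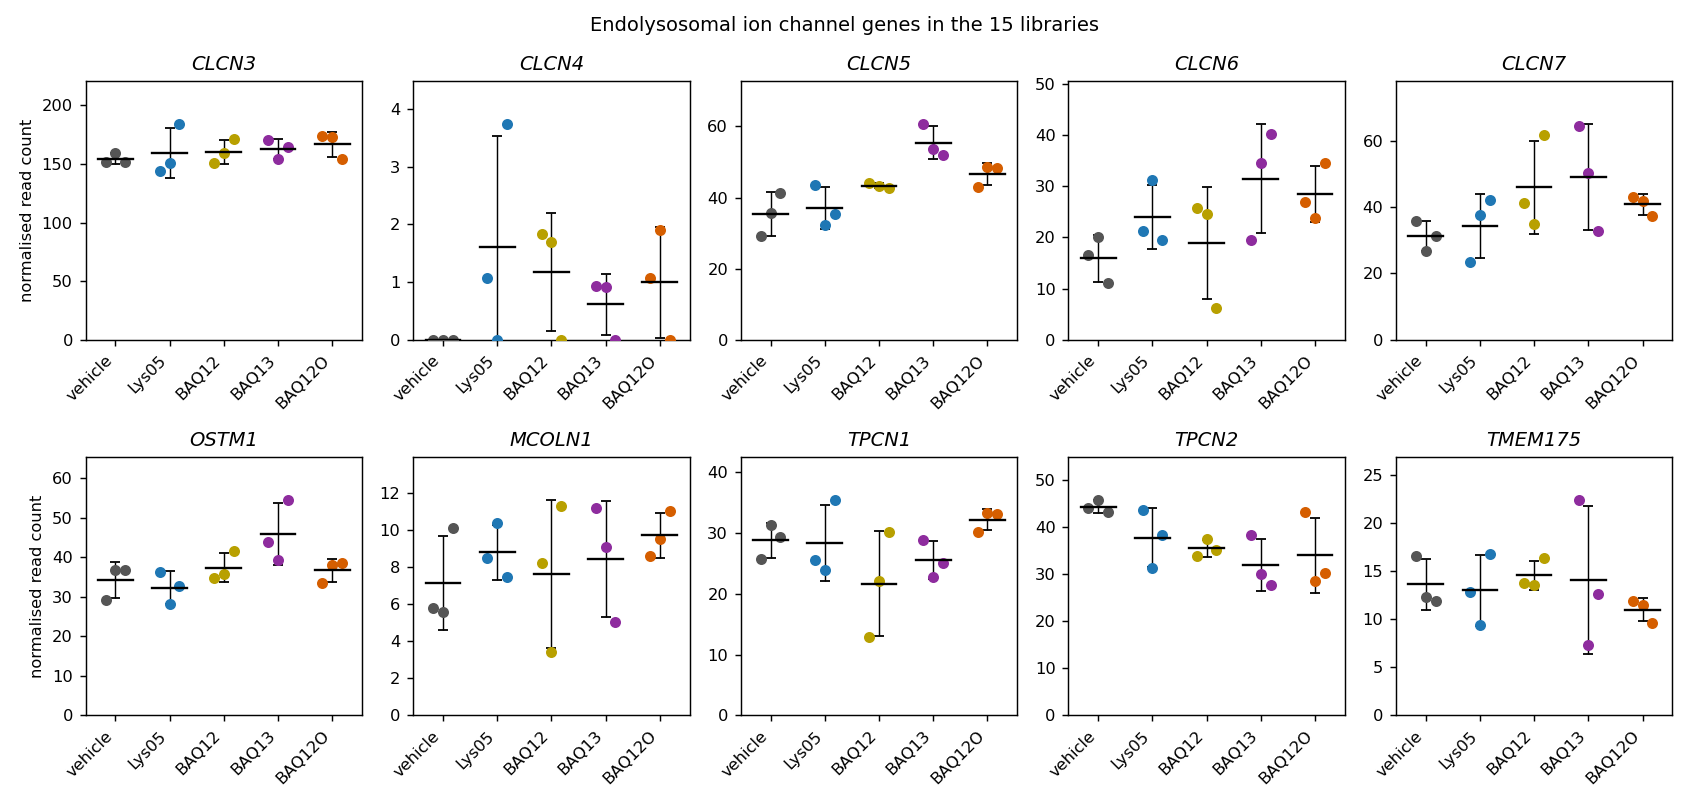
Normalised read count of each of the 10 genes in the 15 libraries, with 1 point per library in replicate order, a bar at the group mean and a vertical line for ± 1 SD (n = 3). All CLCN5 values with BAQ13 (52.0 to 60.7) lie above all vehicle values (29.1 to 41.3), whereas CLCN3 stays near 160 in every group and CLCN4 near 0.

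CLCN6 and CLCN7 had higher fitted values with BAQ13 that did not pass the test over all libraries. CLCN6 encodes an exchanger of late endosomes (chr1:11806096-11848079, + strand). Its vehicle libraries held 16.6, 20.1 and 11.0 normalised counts and its BAQ13 libraries 19.6, 34.6 and 40.2, so the groups overlapped through BAQ13 replicate 1. The fitted difference was 0.92 (SE 0.41, 95% interval 0.06 to 1.78, limma adjusted p = 0.221). CLCN6 measured 26.9, 23.8 and 34.5 with BAQ12O, each above the vehicle libraries, at 21.3, 31.2 and 19.6 with Lys05, and at 25.7, 24.7 and 6.28 with BAQ12, where replicate 3 was the lowest of the 15 libraries. The differences from vehicle were 0.82 with BAQ12O, 0.58 with Lys05 and 0.05 with BAQ12 (limma adjusted p = 0.418, 0.999 and 0.967). Without BAQ12 replicate 3 and BAQ13 replicate 1, the difference of CLCN6 from vehicle was 1.22 with BAQ13, 0.82 with BAQ12O and 0.67 with BAQ12 (limma adjusted p = 0.00091, 0.0206 and 0.272). Leaving out BAQ12 replicate 3 alone, a library of neither group, also brought BAQ13 against vehicle past the threshold (limma adjusted p = 0.0189). All groups share 1 estimate of the spread in these fits. Without BAQ13 replicate 1 alone, the CLCN6 difference with BAQ13 was the same 1.22 but was not called (limma adjusted p = 0.157). The choice to leave out both libraries was made after seeing the data. The share of all tested genes called in these fits is not given here. CLCN6 shares exonic bases with NPPA (286 bases) on the opposite strand, and the strand setting of the read counting is not given in the sources used here.

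CLCN7 is the main lysosomal exchanger (chr16:1444934-1475580, - strand) and OSTM1 is its obligate beta subunit (chr6:108041409-108165854, - strand). The vehicle libraries held 35.7, 26.8 and 31.2 normalised counts of CLCN7 and the BAQ13 libraries 64.4, 50.1 and 32.7. With BAQ12 the values were 41.3, 34.9 and 61.5. The highest CLCN7 values were thus those of the libraries that stood apart, BAQ13 replicate 1 and BAQ12 replicate 3, which were also the lowest in CLCN6 of their groups. CLCN7 measured 23.4, 37.5 and 42.0 with Lys05 and 43.1, 41.9 and 37.2 with BAQ12O, the latter all above vehicle. The differences from vehicle were 0.59 with BAQ13 (SE 0.26, 95% interval 0.04 to 1.14), 0.51 with BAQ12, 0.38 with BAQ12O and 0.10 with Lys05, with limma adjusted p values of 0.218, 0.449, 0.582 and 0.999. Without BAQ12 replicate 3 and BAQ13 replicate 1 they were smaller, 0.37 with BAQ13 and 0.28 with BAQ12 (limma adjusted p = 0.339 and 0.717). Exons of a pair of antisense genes on the opposite strand share 183 and 1124 bases with CLCN7.

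OSTM1 had 29.1, 36.8 and 36.7 normalised counts in the vehicle libraries and 43.9, 39.2 and 54.5 in the BAQ13 libraries. Every BAQ13 library was above every vehicle library, with a fitted difference of 0.41 (SE 0.18, 95% interval 0.04 to 0.78, limma adjusted p = 0.209). OSTM1 lay between 28.1 and 36.2 with Lys05, 34.9 and 41.5 with BAQ12, and 33.4 and 38.6 with BAQ12O, and all 3 ranges overlapped that of the vehicle group. Against Lys05, BAQ13 differed by 0.49 (95% interval 0.11 to 0.86, limma adjusted p = 0.186). Across the 15 libraries, OSTM1 followed CLCN5 (r = 0.785) more closely than its partner CLCN7 (r = 0.181). These are descriptions over libraries that share groups and include BAQ12 replicate 3 and BAQ13 replicate 1, which held the highest CLCN7 values. The correlations without them are not given, and no difference between the correlations was tested.

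CLCN3 and CLCN4 mark the ends of the range of read counts. CLCN3, an exchanger of endosomes and synaptic vesicles (chr4:169612633-169723673, + strand), had the most reads of the set in every group, 112 to 197 per library. It stood at 152, 159.7 and 151 normalised counts with vehicle, 144, 151 and 184 with Lys05, 150.4, 159 and 171 with BAQ12, 171, 154 and 164 with BAQ13, and 174, 173 and 154 with BAQ12O. All treatment groups overlapped the vehicle group. The differences from vehicle were 0.04 to 0.11, and the 95% intervals reached from -0.19 to 0.34 over the 4 treatments. CLCN4, the exchanger most closely related to CLCN3 and CLCN5 (chrX:10156945-10237660, + strand), had no read in the vehicle libraries and 0 to 4 reads in the treated ones. Lys05 replicate 3, with 4 reads, was the single library above the floor of 3 reads, so no difference of CLCN4 was detectable at this depth.

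Among the cation channels, none passed the test against vehicle. MCOLN1 (chr19:7522626-7534009, + strand), a calcium release channel gated by PI(3,5)P2, had only 4 to 12 reads per library. Its values were 5.81, 5.58 and 10.1 normalised counts with vehicle, 8.52, 10.4 and 7.47 with Lys05, 8.25, 3.40 and 11.3 with BAQ12, 11.2, 9.11 and 5.03 with BAQ13, and 8.62, 9.53 and 11.0 with BAQ12O. All groups overlapped, and the differences from vehicle were 0.30, 0.00, 0.19 and 0.43 in that order of treatments. Without BAQ12 replicate 3 and BAQ13 replicate 1, the values of MCOLN1 were -0.31 with BAQ12 and -0.02 with BAQ13. The 95% intervals of the 4 treatments lay between -0.82 and 1.25 (SE 0.39 for each), so sizeable changes of MCOLN1 in either direction remain compatible with the data. The log2(value + 1) scale understates the change of such low genes. MCOLN1 shares 169 exonic bases with an overlapping protein-coding gene on the same strand.

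TPCN2 (chr11:69048897-69162440, + strand) forms a two-pore channel of late endosomes and lysosomes. Its vehicle libraries lay close together at 44.0, 45.8 and 43.1 normalised counts. The BAQ12 libraries held 33.9, 37.4 and 35.2, the BAQ13 libraries 38.3, 30.1 and 27.7, and the BAQ12O libraries 43.1, 28.6 and 30.3. All 9 of these libraries were below every vehicle library, though BAQ12O replicate 1 was lower only in the decimals (43.118 against 43.143). With Lys05 the values were 43.7, 31.2 and 38.3, which overlapped the vehicle group. The fitted differences were -0.24 with Lys05, -0.31 with BAQ12, -0.47 with BAQ13 (95% interval -0.87 to -0.07) and -0.39 with BAQ12O, and limma adjusted p values were 0.999, 0.503, 0.173 and 0.399. Without BAQ12 replicate 3 and BAQ13 replicate 1, TPCN2 differed from vehicle by -0.60 with BAQ13 and -0.31 with BAQ12 (limma adjusted p = 0.0567 and 0.660). The 4 comparisons share the vehicle libraries. TPCN2 shares 307 exonic bases with an overlapping gene model on the same strand.

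TPCN1, the endosomal two-pore channel (chr12:113221050-113298585, + strand), had 25.7, 31.3 and 29.4 normalised counts with vehicle and 12.8, 22.1 and 30.1 with BAQ12, which overlapped. It had 25.6, 24.0 and 35.5 with Lys05, 28.9, 22.8 and 25.1 with BAQ13, and 30.2, 33.4 and 33.1 with BAQ12O. BAQ12 replicate 1 was the lowest of the 15 libraries. The differences from vehicle were -0.47 with BAQ12 (limma adjusted p = 0.468), -0.16 with BAQ13, -0.04 with Lys05 and 0.16 with BAQ12O. Every BAQ12O library was above every BAQ12 library, with a difference of 0.63 (95% interval 0.10 to 1.15, limma adjusted p = 0.510). Without BAQ12 replicate 3 and BAQ13 replicate 1 the same difference was 0.89 (limma adjusted p = 0.0404), a fit that rests on 2 BAQ12 libraries. The differences of TPCN1 from vehicle were then -0.73 with BAQ12 and -0.25 with BAQ13 (limma adjusted p = 0.151 and 0.609).

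TMEM175 (chr4:932387-958656, + strand) encodes the lysosomal potassium channel that also leaks protons. The vehicle libraries held 16.6, 12.3 and 11.9 normalised counts, and the BAQ13 libraries spread from 7.29 to 22.4. BAQ12O gave 11.9, 11.4 and 9.65, just below the vehicle libraries, while Lys05 ranged from 9.37 to 16.8 and BAQ12 from 13.6 to 16.3. The differences from vehicle were -0.08 with Lys05, 0.10 with BAQ12, -0.07 with BAQ13 and -0.28 with BAQ12O (95% interval -0.97 to 0.42). Without BAQ13 replicate 1, the highest of the 15 libraries, and BAQ12 replicate 3, TMEM175 stood at -0.45 with BAQ13 and 0.02 with BAQ12 (limma adjusted p = 0.493 and 0.994). None passed the test over all libraries (limma adjusted p from 0.781 to 0.999).

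Over the 9 tested genes, the counts of calls against vehicle were 0 with Lys05, 0 with BAQ12, 1 with BAQ13 and 0 with BAQ12O by limma. Of all tested genes, limma called 0.238% with Lys05, 0.981% with BAQ12 and 1.48% with BAQ12O. At an unadjusted p under 0.05, limma gave 0, 0 and 1 member for these 3 treatments, against 4.98, 11.8 and 12.8% of all tested genes, and edgeR and DESeq2 called 0 in each. The 5 members under that limit with BAQ13 were CLCN5, CLCN6, CLCN7 and OSTM1, which were higher, and TPCN2, which was lower. The median log2 difference of the 9 genes was 0.04 with Lys05, 0.05 with BAQ12, 0.19 with BAQ13 and 0.16 with BAQ12O, and the median over all tested genes was 0.00 in each comparison. Fitted values were above vehicle for 5, 7, 6 and 7 of the 9 genes, respectively.

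Treated and vehicle libraries did not overlap for 0 members with Lys05, 2 with BAQ12, 3 with BAQ13 and 5 with BAQ12O. Over all tested genes this occurred in 15.6, 15.4, 28.9 and 25.8%, respectively. The members without overlap were CLCN5 (higher) and TPCN2 (lower) with all 3 BAQ compounds, OSTM1 (higher) with BAQ13, and CLCN6 and CLCN7 (higher) and TMEM175 (lower) with BAQ12O. The comparisons share their vehicle libraries, so these counts are not independent of each other.

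**Figure D3:**
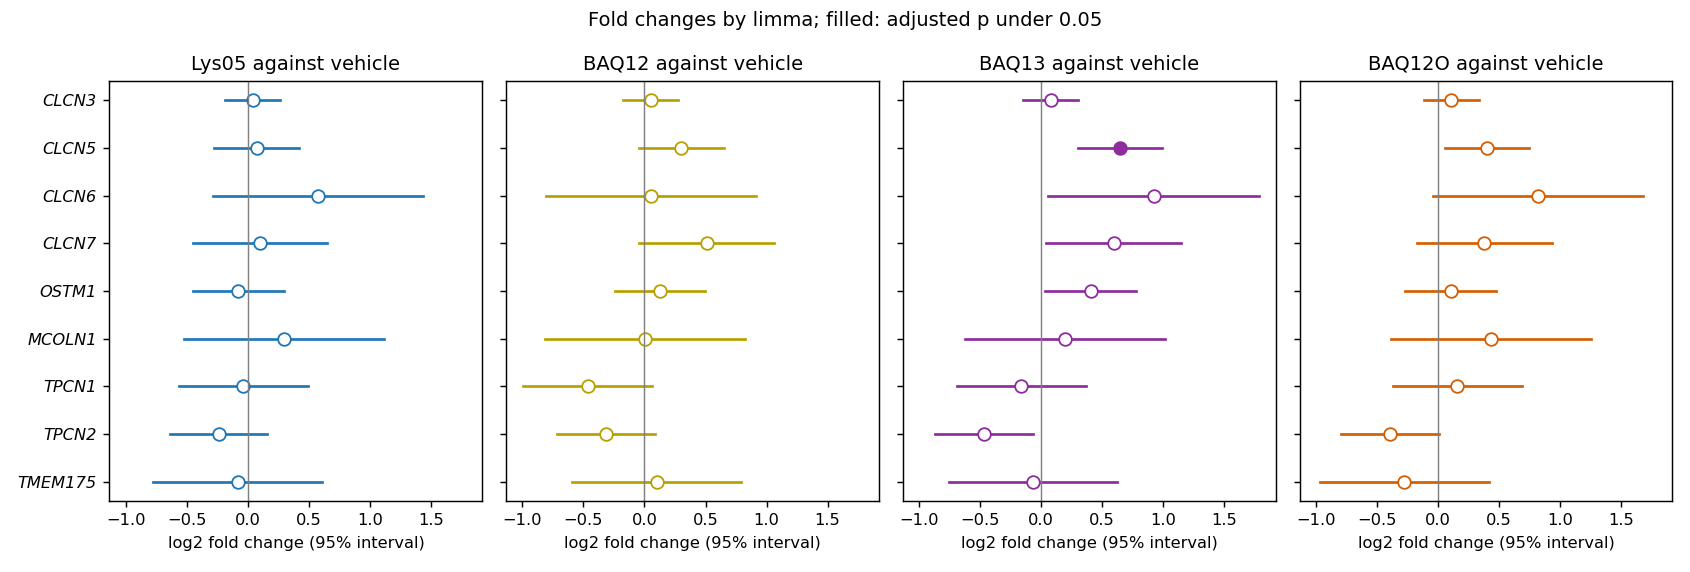
Log2 fold change against vehicle of the 9 tested genes for each treatment, from limma on log2(value + 1), with 95% intervals as lines and a filled point where the adjusted p was under 0.05. The filled point is CLCN5 with BAQ13 (0.65, interval 0.30 to 0.99), and most other intervals cross 0.

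The 4 agents were compared with each other at the same dose and time in 6 pairs, in which limma, edgeR and DESeq2 called 0 of the 9 genes. The share of all tested genes called by limma was 2.66% for BAQ13 against Lys05, 0.162% for BAQ12 against Lys05 and 0.248% for BAQ12O against Lys05. It was 0.562% for BAQ13 against BAQ12, 0.229% for BAQ12O against BAQ12 and 1.39% for BAQ12O against BAQ13. An unadjusted p under 0.05 was found for CLCN5 and OSTM1 in BAQ13 against Lys05, CLCN6 in BAQ13 against BAQ12, TPCN1 in BAQ12O against BAQ12, and no member in the other 3 pairs. Among all tested genes, the share under this limit was 7.17 to 14.6% over the 6 pairs. BAQ12 and BAQ13, which differ by 1 methylene unit, gave differences (BAQ13 minus BAQ12) from -0.17 for TMEM175 to 0.87 for CLCN6. The 95% interval of this difference was -0.20 to 0.25 for CLCN3, -0.47 to 0.63 for CLCN7 and 0.01 to 1.73 for CLCN6 (limma adjusted p = 0.600). The CLCN6 difference was 0.25 without BAQ12 replicate 3 and 0.55 without both libraries that stood apart. Over all libraries, the intervals of CLCN6 and MCOLN1 reach beyond 1 on the log2 scale, so the absence of a call does not show that the compounds act alike on these genes.

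For most of these genes, the spread between libraries was close to or below that expected from counting alone. The coefficient of variation (CV) between libraries of a group, pooled over groups, was 7.72% for CLCN3, against 7.83% from counting alone. For CLCN5 it was 11.5% against 15.3%, for OSTM1 12.4% against 16.4% and for MCOLN1 34.1% against 34.8%. TPCN1, TPCN2 and TMEM175 also lay within 1.13 times the counting value. CLCN6 and CLCN7 were the exceptions, with 35.7% against 20.9% and 24.6% against 15.9%. Without BAQ12 replicate 3 and BAQ13 replicate 1, the CV was 20.0% for CLCN6 against 20.0% from counting, and 20.4% for CLCN7 against 16.1%. Over all libraries, the CV of CLCN5, the member called with BAQ13, was below the counting value. Whether this low spread played a part in the call was not tested.

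**Figure D4:**
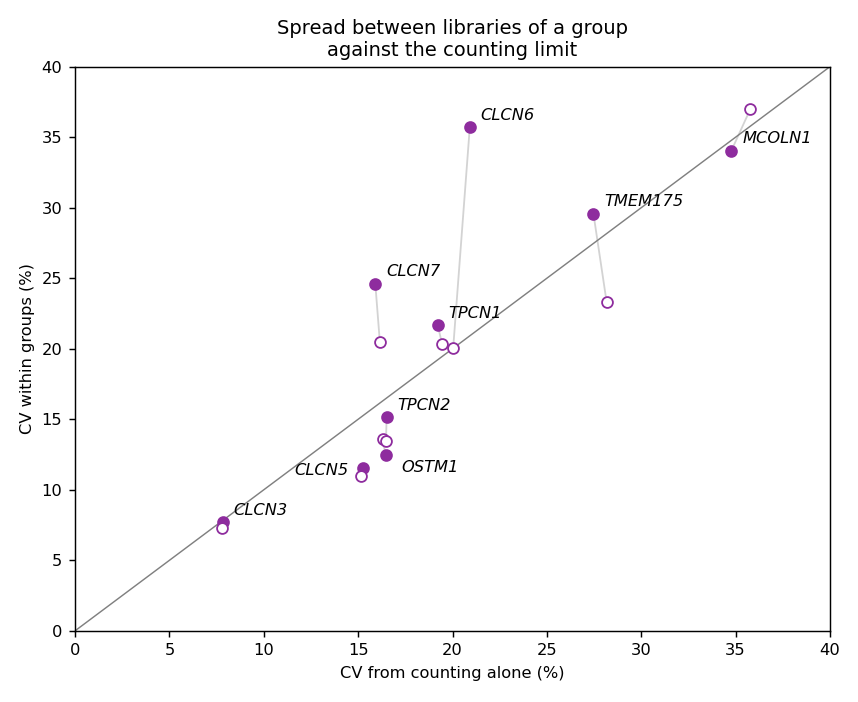
Pooled CV within groups (vertical axis, %) against the CV expected from read counting alone (horizontal axis, %) for the 9 tested genes, with equality as the grey line. Filled points use all 15 libraries, where CLCN6 (35.7%) and CLCN7 (24.6%) lie well above the line, and open points leave out BAQ12 replicate 3 and BAQ13 replicate 1.

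Genes that work beside these channels were counted in the same fit. Of 5 genes for plasma membrane CLC channels and their accessory subunit BSND, only CLCN2 had reads, and it was below the filter. Of 15 other ion channels and transporters, not all of them particular to endosomes and lysosomes, 13 were tested. With BAQ13, 1 was called, where 5.77% of all tested genes were called. This was LRRC8D, a subunit of volume-regulated anion channels, which fell. Its vehicle libraries held 147, 141 and 145 normalised counts and its BAQ13 libraries 113, 90.2 and 112, all lower, a log2 difference of -0.46 (SE 0.12, limma adjusted p = 0.0304). edgeR called it too, DESeq2 did not, and the call was lost (0 genes called in this list) without any 1 of the vehicle libraries or without BAQ13 replicate 2, and with a replicate block. No gene of this list was called with Lys05, BAQ12 or BAQ12O by limma, edgeR or DESeq2. An unadjusted p under 0.05 in limma was found for 0, 1 and 2 of its genes, against 4.98, 11.8 and 12.8% of all tested genes. With BAQ13 it was found for 2 of its genes, against 19.4%. Of 11 regulators and partners, such as the kinase PIKFYVE, which makes the lipid that opens MCOLN1 and the two-pore channels, 10 were tested. By limma, 0 of the 10 were called against vehicle in any treatment. Under the unadjusted limit were 0, 0, 3 and 2 for Lys05, BAQ12, BAQ13 and BAQ12O, against 4.98, 11.8, 19.4 and 12.8% of all tested genes. edgeR called 1 of them, PIKFYVE itself with BAQ13, and DESeq2 called 0. Of the TFEB family, TFEB and MITF had reads but were below the filter, and TFEC had none. TFE3 was tested and not called (differences of 0.11, 0.29, 0.33 and 0.24 with the 4 treatments in the same order, limma adjusted p from 0.234 to 0.999).

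The V-ATPase, whose current these exchangers balance, had 17 of 25 genes tested. With BAQ13, 16 of the 17 were fitted above vehicle, 4 rose by the test and 0 fell, with a median difference of 0.25. Of all tested genes, 5.77% were called in this comparison, in either direction. The 4 were ATP6V0D1 (1.04, limma adjusted p = 0.0204) and the accessory subunit ATP6AP1 (0.87, limma adjusted p = 0.00738), together with ATP6V1E1 (0.60, limma adjusted p = 0.0207) and ATP6V1G1 (0.40, limma adjusted p = 0.0209). ATP6V0D1 went from 24.6 ± 10.3 to 49.2 ± 5.33 normalised counts (SD, n = 3). edgeR and DESeq2 called the same 4 genes. The count was 0 without vehicle replicate 2, 2 without vehicle replicate 3, 1 without BAQ13 replicate 2 or 3 and 7 without BAQ12 replicate 3. No V-ATPase gene was called with Lys05, BAQ12 or BAQ12O by limma, edgeR or DESeq2. In limma, 1, 3 and 1 V-ATPase genes had an unadjusted p under 0.05 with these treatments, against 4.98, 11.8 and 12.8% of all tested genes. With BAQ13 the number was 8 of 17, against 19.4% of all tested genes. For 11 of the 17, every BAQ13 library was above every vehicle library. Of all tested genes, 28.9% did not overlap in that comparison, in either direction. Without both libraries that stood apart, limma called 6 V-ATPase genes with BAQ13, 2 with BAQ12 (ATP6V1D and ATP6V0E1) and 1 with BAQ12O (ATP6V0E1). The shares of all tested genes called in these fits with libraries left out are not given here, so the counts cannot be set against them.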

How the data were processed

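RNA of the 15 libraries had been sequenced by the authors. The labels name a 3′-end tag kit and the methods a stranded paired-end kit, so levels were not compared between genes. The deposited values are a normalised signal per gene, that is, read counts divided by a size factor. The submitters' processing notes list STAR, HTSeq, DESeq2 and GRCh38 (hg38), with no roles or versions. All values (100%) were whole multiples of 1 step per library (tolerance 0.01), so reads were recovered. Spike-ins had 0 reads.

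Genes were kept by filterByExpr on the recovered reads (minimum count 10, minimum total 15), leaving 10495. limma 3.58.1 (R 4.3.3, variance trend) was run on log2(value + 1) over all libraries without covariates, with Benjamini-Hochberg adjustment over all genes within each of 10 comparisons and a threshold of 0.05. edgeR 4.0.16 and DESeq2 1.42.0 on the reads were alternatives, with other pseudocounts (0.5 and 5), filters, TMM factors, library weights, fits of only 2 groups, a replicate block and leaving out each library. Scripts were tested on simulated data. Positions and overlaps are from GENCODE release 29, which holds 56531 of the 60107 identifiers, and promoter windows are from RefSeq. Not every overlap is reported here. Counting CVs are from the reads.

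The genes, lists and motifs were chosen with earlier results of these data known. All 10 members are named, with every gene of the other lists that passed the threshold against vehicle. For CLCN5, CLCN7 and MCOLN1, the 3 tested genes with the highest Pearson r over the libraries are named as well.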

Additional observations from a re-analysis of the deposited data

How the results depend on the processing

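Of 2287 values of single genes under alternatives, 2270 kept their side of the threshold, 6 were no longer past it and 11 came past it. All 6 losses were of CLCN5 in BAQ13 against vehicle, the 1 member result past the threshold in the main fit. Most of the 2270 were of results not past it to begin with, so they say little about that call. DESeq2 gave no adjusted p for a further 23. In 78 the sign differed, 0 of them past the threshold. For BAQ13 against vehicle, 1 member was called. DESeq2 called 0, the fit without a filter 0 (limma adjusted p = 0.0517 for CLCN5), library weights 4 (CLCN5, CLCN6, CLCN7 and TPCN2) and the fit without both BAQ12 replicate 3 and BAQ13 replicate 1, chosen after seeing the data, 2 (CLCN5 and CLCN6). Leaving out 1 library at a time gave 0 to 2, with 0 without vehicle replicate 1 or 2 or BAQ13 replicate 1 or 2 and 2 without BAQ12 replicate 3. For BAQ12O against vehicle, where 0 were called, the fit of only these groups and that without both libraries each called 1 (CLCN6). For BAQ13 against Lys05, library weights called 1 (CLCN5) and leaving out 1 library gave 0 to 1, the latter without BAQ12 replicate 3. Library weights called 1 in BAQ13 against BAQ12 (MCOLN1), and the fit without both libraries called 1 in BAQ12O against BAQ12 (TPCN1). Among the related lists, the fit without both libraries called 3 other channels (MCOLN3, KCNMA1 and LRRC8B), 2 partners (TMEM9B and AKT2), TFE3 and ATP6V0E1 with BAQ12O, PIKFYVE with BAQ13, 6 V-ATPase genes in place of 4 with BAQ13 and 2 in place of 0 with BAQ12. The share of all tested genes called under each alternative is not given here, so these counts cannot be read against it. The cause of these changes was not tested.

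Replicate numbers are shared between groups but nothing says that they pair the samples. Deviations of same-numbered libraries correlated between -0.492 and 0.200, and in no comparison were all 3 pairs over 0.1. With a replicate block, 1 member was called for BAQ13 against vehicle (CLCN5, limma adjusted p = 0.0476) and 0 in each other comparison. The block also ended the calls of LRRC8D in BAQ13 against vehicle (0 other channels called) and of ATP6V1G1 in BAQ13 against Lys05 and in BAQ12O against BAQ13 (0 V-ATPase genes called).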

Other observations

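The genes whose values followed CLCN5 most closely over the 15 libraries were GM2A, the activator of ganglioside GM2 breakdown (r = 0.935), AP5Z1, a subunit of the AP-5 adaptor of late endosomes (r = 0.892), and NDRG4 (r = 0.890). For CLCN7 they were NKIRAS2 (r = 0.934), ATP6V0B, a subunit of the V-ATPase (r = 0.926), and LAMTOR5, a subunit of the lysosomal Ragulator complex (r = 0.909). MCOLN1 was followed by AC096772.6 (r = 0.879), the sulfatase family gene ARSD (r = 0.864) and GFER (r = 0.826), but with 4 to 12 reads of MCOLN1 per library this order is uncertain. Without BAQ12 replicate 3 the r values of these same genes lay between 0.852 and 0.942. BAQ13 replicate 1, which also stood apart and had the highest CLCN7 value (64.4), was kept in that check. ATP6V0B was at 107 normalised counts in BAQ13 replicate 1 and 114 in BAQ12 replicate 3, and at most 72.0 in the other libraries. How far the CLCN7 correlations rest on BAQ13 replicate 1 was not tested. The named genes were the highest of 10495, the libraries share groups, and the correlations are descriptions without a test.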
